A study of Mus musculus with 14 samples.

Results

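The genes described here are the hemoglobin and erythroid genes of the mouse intervertebral disc (IVD): the alpha-globin genes *Hba-a1* and *Hba-a2*, the beta-globin genes *Hbb-bs* and *Hbb-bt*, the heme synthesis enzyme gene *Alas2*, the red cell membrane genes *Slc4a1* and *Epb42*, and the transcription factor gene *Klf1*. They were chosen by name. Of 9 genes named, 8 of the 55487 genes in the table of gene counts were analysed, and 1 is not analysed here. RNA was sequenced from tail IVDs of 14 male mice, with 5 discs pooled per mouse, in 2 models of type 2 diabetes. The db/db mice (n = 3) carry 2 mutant alleles of the leptin receptor gene, and their db/+ littermates (n = 3) carry 1, so that the controls are heterozygous and not wild type. Both db groups were 3 months old. The STZ-HFD mice (n = 4) were 12 weeks old at the start, received a high-fat diet for 4 to 6 weeks, were injected once with 100 mg/kg of streptozotocin (STZ), a toxin of pancreatic beta cells, and stayed on the diet for 12 more weeks. The Con+Veh mice (n = 4), called wild type in the labels, received control chow and the citrate buffer vehicle over the same time. The db allele alters splicing of the leptin receptor transcript, so a count over the whole gene does not check the genotype.

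Red blood cells carry oxygen on hemoglobin, a tetramer of alpha- and beta-globin chains, each chain holding a heme. Erythroid precursors in the bone marrow make globin chains and heme in step, under transcription factors that include KLF1 and GATA1, and the reticulocytes and red cells that enter the circulation keep globin mRNA although they have lost the nucleus. The healthy disc is largely avascular, with vessels at the endplates and the outer annulus, next to vertebral marrow. In pooled whole discs, fewer cells of a type and less RNA per cell cannot be told apart.

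The sequences in front of these genes are shown because they hold boxes that erythroid factors are known to bind, and because they show how alike the gene copies are. Each line gives the 150 bases before the RefSeq start of the gene, 5′ to 3′ on the strand of the gene (build GRCm38.p6). The gene positions given further below are from GENCODE, which places these starts further upstream. By those positions the *Hba-a1* and *Hbb-bs* windows lie within the gene, and the *Hbb-bt* and *Alas2* windows overlap it. Capitals mark the CACCC box, the GATA box spelled AGATAA, the CCAAT box and the TATA-like box spelled ATATAA, searched on both strands, so that a box on the other strand stands as its reverse complement. KLF1 is known to bind CACCC boxes and GATA1 to bind GATA boxes, and the other boxes are common parts of promoters.
Hba-a1 (chr11:32283522-32283671, + strand): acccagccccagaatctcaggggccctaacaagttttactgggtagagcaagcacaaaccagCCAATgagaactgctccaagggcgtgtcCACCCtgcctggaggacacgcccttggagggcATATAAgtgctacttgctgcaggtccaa
Hbb-bs (chr7:103827929-103828078, - strand): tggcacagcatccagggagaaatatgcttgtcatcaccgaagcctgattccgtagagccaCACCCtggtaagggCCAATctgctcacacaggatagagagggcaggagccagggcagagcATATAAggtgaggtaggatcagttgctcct
Hbb-bt (chr7:103813924-103814073, - strand): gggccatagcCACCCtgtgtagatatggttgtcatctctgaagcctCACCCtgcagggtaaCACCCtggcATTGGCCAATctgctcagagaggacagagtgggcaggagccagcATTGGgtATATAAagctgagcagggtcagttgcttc
Alas2 (chrX:150547267-150547416, + strand): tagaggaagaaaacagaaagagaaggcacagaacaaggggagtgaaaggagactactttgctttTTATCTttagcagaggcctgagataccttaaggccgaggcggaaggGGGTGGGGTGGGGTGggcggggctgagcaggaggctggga
All 3 globin windows held a CACCC box, a CCAAT box and the TATA-like letters, and the *Alas2* window held the GATA box and 3 matches of the CACCC box. Of the windows not printed, that of *Hba-a2* held the same 3 boxes as *Hba-a1*, that of *Klf1* a CACCC and a CCAAT box but neither of the others, and that of *Epb42* none of the 4. Other spellings of the GATA box were not searched, so a window without AGATAA may still hold one. Of 32851 promoter windows of the same length, 37.4% held a CACCC box, 5.65% the GATA box, 24.5% a CCAAT box and 5.35% the TATA-like box. The windows of *Hba-a1* and *Hba-a2* were not both printed because their 300-base promoter sequences shared a run of 297 identical bases, whereas the longest run shared by those of *Hbb-bs* and *Hbb-bt* was 14 bases.

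The copies of each globin were nearly identical in their coding sequence, which bears on how well their counts can be told apart. *Hba-a1* and *Hba-a2* differed at 1 of 426 coding bases, C381T, and *Hbb-bs* and *Hbb-bt* at 1 of 441, C417T. Positions are counted from the A of the start codon, with the base of the first-named gene first. The stretches around the 2 differences are printed with the differing base in capitals.
Hba-a1, coding bases 366 to 396: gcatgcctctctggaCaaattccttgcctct
Hba-a2, coding bases 366 to 396: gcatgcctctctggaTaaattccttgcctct
Hbb-bs, coding bases 402 to 432: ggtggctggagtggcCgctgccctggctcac
Hbb-bt, coding bases 402 to 432: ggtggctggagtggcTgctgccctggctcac
Of the 50-base windows of the *Hba-a1* transcript, 67.5% occurred unchanged in *Hba-a2*, and 65.8% of those of *Hbb-bs* occurred in *Hbb-bt*, while no window of *Hba-a1* occurred in *Hbb-bs*. How the counting treated reads that map to several genes is not given in the sources used here. Values of a single copy are therefore uncertain. The alpha and beta sums do not depend on the split between copies, but they too depended on the counting. The alpha sum of gene counts was 1.48 to 5.63 times that of the estimated counts per transcript. For the beta sum it was 2.12 to 2.54 times.

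Gene counts per library totalled 16076908 to 58943169, of which 28.1% to 60.2% fell on ribosomal RNA genes. At this depth, 3 counts correspond to 0.0509 to 0.187 counts per 1e6 counts of the library (CPM), a floor that covers counting error only. CPM below are scaled by the edgeR trimmed mean of M-values (TMM). Of the disc markers, *Acan* was at 318 to 9314 CPM and *Col2a1* at 110 to 12490 CPM, while *Shh* was at 0 in 8 libraries. The libraries were not alike in these markers. The summed level of 10 disc and cartilage genes was 27675 to 41019 CPM in db/+ and 13287 to 27541 in db/db. It was 2927 to 5330 CPM in Con+Veh and 1519 to 3115 in STZ-HFD. STZ-HFD replicate 1 stood apart: 42626 genes had a count in it, against 25194 to 29924 in the other 13 libraries, and 1700 of 2003 olfactory and vomeronasal receptor genes had one, against 264 to 468. Its total was the lowest, so several results that rest on it, though not all, are also given without it. The labels give each mouse its own library.

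The adult globin genes were a minor part of the disc RNA in all 4 groups. *Hba-a1*, *Hba-a2*, *Hbb-bs* and *Hbb-bt* together took a median of 0.00622% of the gene counts in db/+ (range 0.00600% to 0.00968%), 0.00920% in db/db (0.00531% to 0.0135%), 0.00367% in Con+Veh (0.00188% to 0.00720%) and 0.00552% in STZ-HFD (0.00485% to 0.00846%). In each model the 2 groups overlapped, also without STZ-HFD replicate 1, where the STZ-HFD range was 0.00485% to 0.00598%. Per kilobase of exon, the mean levels in db/+ were 30.5 CPM per kb for *Hba-a1*, 27.3 for *Hba-a2*, 20.7 for *Hbb-bs* and 3.11 for *Hbb-bt*. *Alas2* was lower, at 0.989 CPM per kb, and *Slc4a1*, *Epb42* and *Klf1* were at 0.0591, 0.0633 and 0.0279 CPM per kb. In the other 3 groups *Hbb-bs* had the highest mean per kb: 34.2 CPM per kb beside 26.1 for *Hba-a1* and 23.6 for *Hba-a2* in db/db, 26.3 beside 21.02 and 19.9 in Con+Veh, and 46.7 beside 20.7 and 19.3 in STZ-HFD. The order of these means was not tested.

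**Figure D1:**
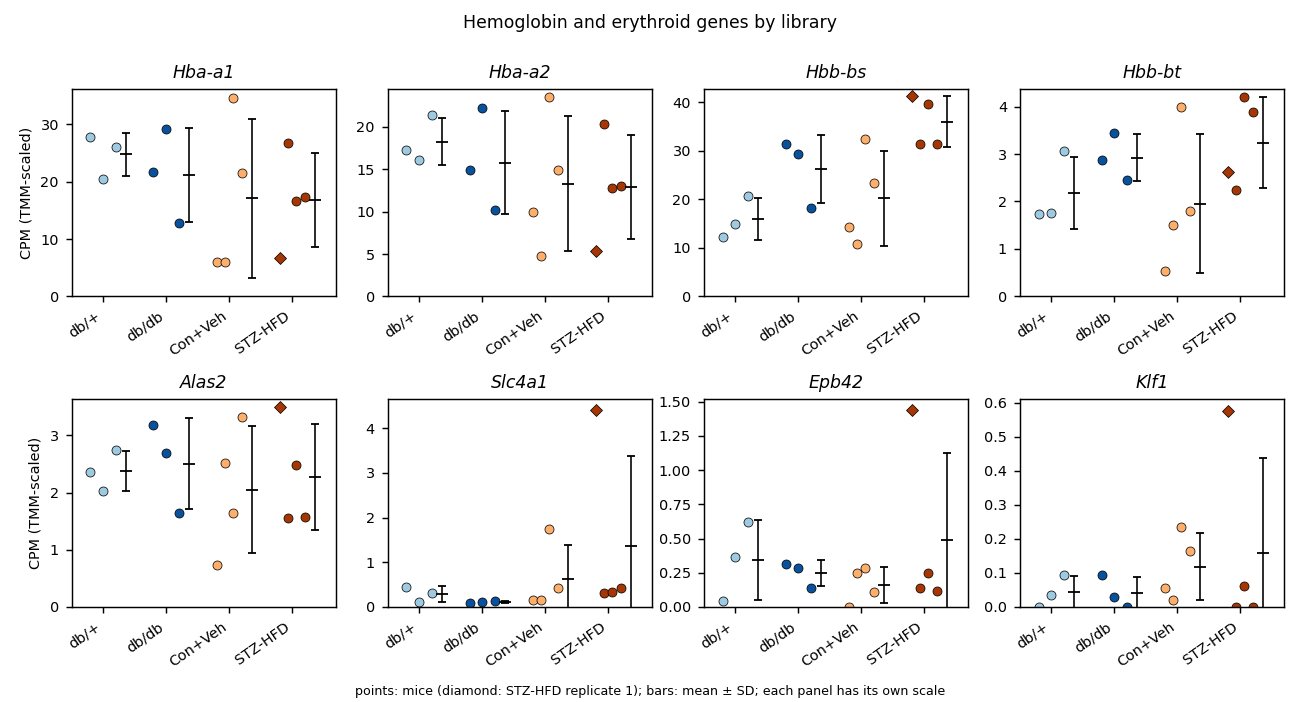
TMM-scaled CPM of the 8 genes in each of the 14 libraries, with the group mean and SD as a bar beside the points. *Hbb-bs* was at 31.4 CPM or more in all 4 STZ-HFD libraries, the alpha-globin genes spread widely in Con+Veh, and STZ-HFD replicate 1 (diamond) was the highest library for *Slc4a1*, *Epb42* and *Klf1*.

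*Hbb-bs*, one of the 2 adult beta-globin genes (ENSMUSG00000052305, chromosome 7 from 103826534 to 103828096), had the highest beta-globin counts. It was at 12.2, 14.8 and 20.7 CPM in the 3 db/+ libraries and at 31.3, 29.2 and 18.3 CPM in the 3 db/db libraries. Of the db/db libraries, 2 lay above all db/+ libraries and replicate 3 fell within their range. The difference of db/db from db/+ was 0.73 on the log2 scale (SE 0.31, 95% interval 0.07 to 1.38), with an unadjusted p of 0.0313 and an adjusted p of 0.191 (limma with Benjamini-Hochberg adjustment over 16915 genes). The interval held both values close to 0 and values past 1, the fold change minimum for a call.

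*Hbb-bs* was at 14.2, 10.8, 32.3 and 23.4 CPM in the 4 Con+Veh libraries and at 41.2, 31.4, 39.6 and 31.4 CPM in the 4 STZ-HFD libraries. All STZ-HFD libraries were higher than 3 of the Con+Veh libraries, and Con+Veh replicate 3 lay within their range. The difference was 0.47 on the log2 scale (SE 0.27, 95% interval -0.10 to 1.05, limma adjusted p = 0.385). It was 0.48 without STZ-HFD replicate 1 (adjusted p = 0.388) and 0.97 without Con+Veh replicate 3 (adjusted p = 0.346), the library with the largest weight in the fit, 3.05. With voom without such quality weights the difference was 1.00 (limma adjusted p = 0.244). The edgeR quasi-likelihood test gave 0.83 (adjusted p = 0.287) and DESeq2 0.86 (adjusted p = 0.145). By mean level the groups followed the order db/+ (15.9 ± 4.32 CPM, SD, n = 3), Con+Veh (20.2 ± 9.70, n = 4), db/db (26.3 ± 7.01, n = 3) and STZ-HFD (35.9 ± 5.24, n = 4). Neighbors in that order were of different models, ages and diets and were not compared by a test, and the ranges of the first 3 groups overlapped each other.

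*Hbb-bt*, the other adult beta-globin gene (ENSMUSG00000073940, chromosome 7 from 103812524 to 103813996), was about an order of magnitude lower. Its CPM were 1.74, 1.76 and 3.06 in db/+ and 2.88, 3.45 and 2.45 in db/db, with overlapping groups. The difference was 0.47 on the log2 scale (SE 0.40, limma adjusted p = 0.516). Its CPM were 0.543, 1.496, 3.99 and 1.79 in Con+Veh and 2.63, 2.24, 4.19 and 3.89 in STZ-HFD, where the groups again overlapped. The difference there was 0.55 (SE 0.42, limma adjusted p = 0.539).

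*Hba-a1* and *Hba-a2* lie near each other on chromosome 11 (ENSMUSG00000069919, from 32283511 to 32284465, and ENSMUSG00000069917, from 32296489 to 32297298) and encode the adult alpha-globin chain. *Hba-a1* was at 27.7, 20.5 and 26.0 CPM in db/+ and at 21.7, 29.2 and 12.8 CPM in db/db. db/db replicate 3 was the lowest of the 6 libraries and db/db replicate 2 the highest. The difference of db/db from db/+ was -0.27 on the log2 scale (SE 0.45, 95% interval -1.22 to 0.68, limma adjusted p = 0.771). It was 0.05 without db/db replicate 3 and 0.09 after the trend with GC content was removed, so its sign depended on that library and on that correction.

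*Hba-a1* was at 6.03, 6.05, 34.6 and 21.6 CPM in Con+Veh and at 6.74, 26.7, 16.6 and 17.3 CPM in STZ-HFD. Con+Veh held both the lowest and the highest of these 8 values. The difference was -0.44 on the log2 scale (SE 0.42, 95% interval -1.32 to 0.44, limma adjusted p = 0.629), and it was 0.42 without Con+Veh replicate 3. *Hba-a2* was at 17.3, 16.03 and 21.4 CPM in db/+, 14.9, 22.2 and 10.2 in db/db, 9.998, 4.76, 23.5 and 14.9 in Con+Veh, and 5.30, 20.4, 12.8 and 13.02 in STZ-HFD. Its differences were -0.25 (SE 0.39, limma adjusted p = 0.755) between db/db and db/+ and -0.36 (SE 0.37, limma adjusted p = 0.671) between STZ-HFD and Con+Veh, and they also turned positive without db/db replicate 3 (0.03) and without Con+Veh replicate 3 (0.33). In both models the alpha-globin genes had negative and the beta-globin genes positive differences, but no test of this pattern was made.

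*Alas2* encodes the erythroid form of the first enzyme of heme synthesis (ENSMUSG00000025270, chromosome X from 150547375 to 150570638). It was at 2.36, 2.03 and 2.74 CPM in db/+ and 3.18, 2.699 and 1.63 in db/db, so the db/db range enclosed the db/+ range. The difference was 0.04 on the log2 scale (SE 0.34, 95% interval -0.68 to 0.77, limma adjusted p = 0.959). *Alas2* was at 0.734, 2.51, 1.65 and 3.31 CPM in Con+Veh and at 3.49, 1.55, 2.49 and 1.58 in STZ-HFD. The difference was -0.01 (SE 0.42, 95% interval -0.91 to 0.88, limma adjusted p = 0.993). These intervals still held changes of close to 1 on the log2 scale in the second model.

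**Figure D2:**
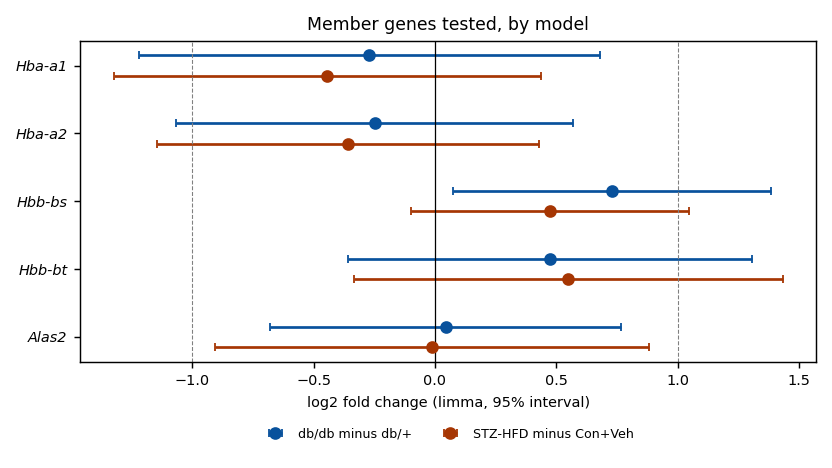
Log2 fold change with its 95% interval from limma for the 5 genes that passed the filter on low counts, in each model; dashed lines mark the fold change minimum of 1. Only the interval of *Hbb-bs* in db/db minus db/+, from 0.07 to 1.38, left out 0, and its adjusted p was 0.191.

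None of these genes was called in either model. A gene entered the fit when its CPM exceeded 1 in at least 3 libraries, which 5 of the 8 genes did, and was called at an adjusted p under 0.05 if it also changed by 1 or more on the log2 scale. With limma, 0 of 5 were called in db/db minus db/+, where 1.66% of all genes tested were called, and 0 of 5 in STZ-HFD minus Con+Veh, where 2.61% were. At an unadjusted p under 0.05 there was 1 gene (*Hbb-bs*) in the first and 0 in the second comparison, against 21.1% and 17.9% of all genes. The edgeR quasi-likelihood test also called 0 of the 5 genes in each model, where it called 0% and 0.171% of all genes, and DESeq2 called 0, where it called 1.25% and 1.64%. At an unadjusted p under 0.05, edgeR had 0 and 1 genes and DESeq2 1 and 1, in each case *Hbb-bs*. The difference between the models, tested as a contrast in the same fit, passed for 0 of 5 genes with limma, where 1.77% of all genes were called, with 0 at an unadjusted p under 0.05, against 17.3% of all genes. The lowest adjusted p was 0.809, for *Hbb-bs*. None of the 8 genes separated its groups without overlap in CPM, whereas 25.8% of the genes tested did so in the db mice and 4.74% in the STZ-HFD and Con+Veh mice.

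The ratio of beta- to alpha-globin counts was examined after the single values had been seen, and it is given as a description with no test. It was 0.311, 0.454 and 0.501 in db/+ and 0.933, 0.636 and 0.901 in db/db, so the db groups did not overlap. It was 0.920, 1.13, 0.624 and 0.692 in Con+Veh and 3.64, 0.716, 1.49 and 1.16 in STZ-HFD. The first of the STZ-HFD values is that of replicate 1, and without it the STZ-HFD mean was 1.12 ± 0.388 (SD, n = 3) beside 0.843 ± 0.232 (n = 4) in Con+Veh. From the transcript estimates the ratio was 0.452 to 0.621 in db/+ and 1.09 to 1.41 in db/db, again without overlap. Of the single genes tested, 25.8% also separated the db groups without overlap in CPM. In the other model the transcript ratio overlapped, at 0.542 to 2.05 in Con+Veh and 0.980 to 8.56 in STZ-HFD. Without STZ-HFD replicate 1 its highest STZ-HFD value was 2.995. GC content differed between the chains, at 57.2% of exon bases in *Hba-a1* and 51.3% in *Hbb-bs*. With the GC trend of each library removed, the log2 difference of db/db from db/+ was 0.09 for *Hba-a1*, 0.11 for *Hba-a2*, 0.82 for *Hbb-bs* and 0.52 for *Hbb-bt*. The part of GC content in the ratio was not tested beyond this.

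**Figure D3:**
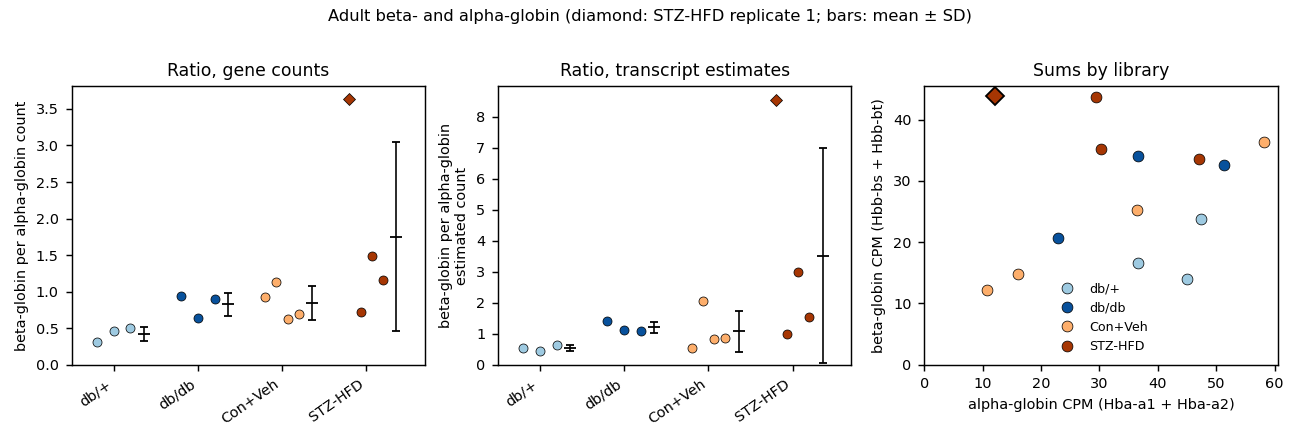
Left and middle, beta-globin counts (*Hbb-bs* plus *Hbb-bt*) per alpha-globin count (*Hba-a1* plus *Hba-a2*) by library, from gene counts and from transcript estimates, with mean and SD; right, the 2 sums in CPM. The ratio was 0.311 to 0.501 in db/+ and 0.636 to 0.933 in db/db, and highest in STZ-HFD replicate 1 (diamond, 3.64), where the alpha sum was 12.0 and the beta sum 43.9 CPM.

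How the counts were split between the copies depended on the counting. *Hba-a1* took 54.9% to 61.6% of the alpha-globin gene counts in 13 libraries and 37.6% in Con+Veh replicate 1 (exact 95% interval 33.7% to 41.7%, counting error only), but 8.20% to 30.0% of the alpha-globin transcript estimates. The alpha sum of gene counts was 1.48 to 5.63 times that of the transcript estimates, whereas the beta sum was 2.12 to 2.54 times that of the estimates. *Hbb-bt* took 3.68% to 12.9% of the beta-globin gene counts and 0.462% to 11.8% of the estimates. Its share of gene counts was 12.0% ± 1.23 (SD, n = 3) in db/+ and 10.3% ± 1.72 (n = 3) in db/db, a difference of -1.72 percentage points (two-sided exact permutation p = 0.2, where the smallest possible is 0.1). In Con+Veh and STZ-HFD it was 8.50% ± 3.88 (n = 4) and 8.32% ± 2.40 (n = 4), a difference of -0.183 points (two-sided exact permutation p = 0.943, smallest possible 0.0286). Without STZ-HFD replicate 1 that difference was 0.590 points (two-sided exact permutation p = 0.857).

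*Slc4a1*, *Epb42* and *Klf1* did not pass the filter, and their counts were 40 or fewer outside STZ-HFD replicate 1. That library had the most counts of *Slc4a1* and *Klf1*, whereas *Epb42* had the most in db/+ replicate 3. *Slc4a1* encodes band 3, the anion exchanger of the red cell membrane (ENSMUSG00000006574, chromosome 11 from 102348824 to 102366203). It had 22, 6 and 20 counts in db/+, 5, 8 and 8 in db/db, 6, 8, 37 and 8 in Con+Veh, and 107, 9, 11 and 14 in STZ-HFD. *Epb42* encodes protein 4.2, which links band 3 to the membrane skeleton (ENSMUSG00000023216, chromosome 2 from 121017891 to 121037072). It had 2, 21 and 40 counts in db/+, 20, 20 and 9 in db/db, 0, 12, 6 and 2 in Con+Veh, and 35, 4, 8 and 4 in STZ-HFD. *Klf1*, which encodes a factor that switches on adult beta-globin and other erythroid genes (ENSMUSG00000054191, chromosome 8 from 84901928 to 84905291), had 0 to 6 counts in 13 libraries and 14 in STZ-HFD replicate 1. With no filter on low counts, their adjusted p in limma was 0.271 or more in both models. The 0.271 was that of *Klf1* in STZ-HFD minus Con+Veh, which differed by -2.27 on the log2 scale (SE 0.96, limma unadjusted p = 0.0311).

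The counts of low erythroid genes in STZ-HFD replicate 1 were not matched by the transcript estimates. For *Slc4a1*, *Epb42* and *Klf1* the estimate in that library was 0 in place of 107, 35 and 14. The embryonic globin genes, which serve the primitive red cells of the embryo, were at 0 in most libraries. *Hbb-y* had 62 counts in STZ-HFD replicate 1 and 0 or 1 in the other 13, and *Hbb-bh1* had 11 and 0, with transcript estimates of 0. The same held for *Kel*, a blood group antigen gene (54 counts, 0 to 2 in the others). *Gata1*, the master regulator gene of the erythroid lineage, had 18 counts in it and 0 to 16 in the others.

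**Figure D4:**
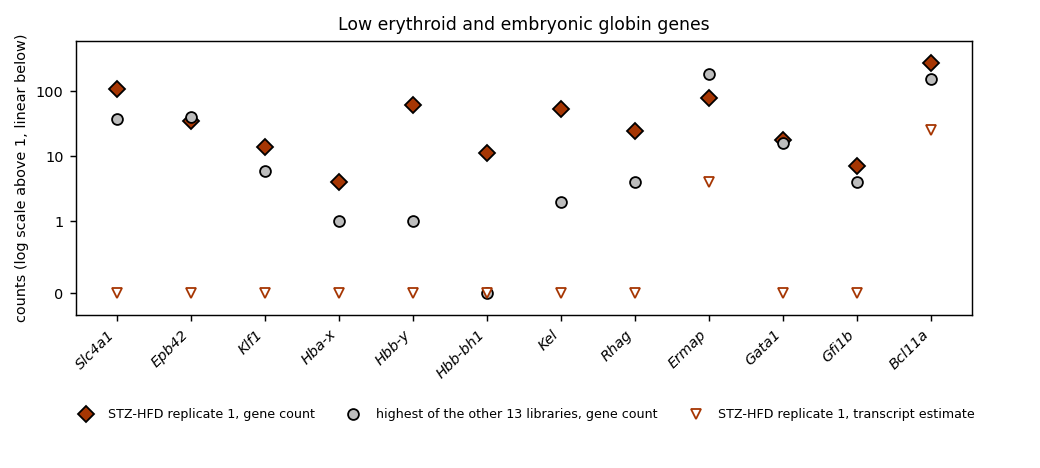
Counts of low erythroid and embryonic globin genes on an axis that is logarithmic above 1: gene counts in STZ-HFD replicate 1, the highest gene count among the other 13 libraries, and the transcript estimate in STZ-HFD replicate 1. Gene counts of *Hbb-y* (62 against at most 1) and *Kel* (54 against at most 2) stood far above the other libraries, while the transcript estimates of both were 0.

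A wider set of 6 lists with 61 erythroid genes was read in the same fit, and 43 of them passed the filter. In db/db minus db/+, 0 of 43 were called with limma, beside 1.66% of all genes tested, and 7 had an unadjusted p under 0.05, beside 21.1%. The median log2 difference was -0.22, beside -0.04 over all genes tested. In STZ-HFD minus Con+Veh, 1 of 43 was called, beside 2.61% of all genes, and 6 had an unadjusted p under 0.05, beside 17.9%. The median was -0.0019 beside -0.04. That gene was *Tfrc*, which encodes the transferrin receptor that imports iron and is expressed by many dividing cells besides erythroblasts. *Tfrc* was at 3.10, 20.5, 8.55 and 6.08 CPM in Con+Veh and 15.1, 10.6, 26.3 and 20.2 CPM in STZ-HFD, and rose by 1.27 on the log2 scale (SE 0.31, limma adjusted p = 0.0351). The groups overlapped through Con+Veh replicate 2. The call was kept without STZ-HFD replicate 1 (1.34, adjusted p = 0.0335) but lost when any of Con+Veh replicates 3 and 4 or STZ-HFD replicates 3 and 4 was left out, and edgeR and DESeq2 did not make it.

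The heme synthesis enzymes had all 7 genes tested and none called. In STZ-HFD minus Con+Veh all 7 had positive differences, with a median of 0.30, and in db/db minus db/+ 2 of 7 had, with a median of -0.22. The summed level of the 7 genes was 67.0 to 77.9 CPM in Con+Veh and 63.2 to 106 CPM in STZ-HFD. Without STZ-HFD replicate 1, the lowest, the STZ-HFD sums were 81.2 to 106 CPM. The sums were not tested. *Fech*, which inserts iron into the heme ring, was at 40.6 ± 4.17 CPM in Con+Veh and 44.6 ± 15.2 in STZ-HFD (SD, n = 4 each), a difference of 0.25 (limma adjusted p = 0.555). The *Fech* difference was 0.37 without STZ-HFD replicate 1 (limma adjusted p = 0.275). These enzymes also make heme in cells outside the erythroid lineage. Of the red cell membrane and skeleton list, 8 of 15 genes were tested and none was called in either model. Among them, *Sptb*, which encodes a beta-spectrin found in red cells and in muscle, differed by -1.05 in db/db minus db/+ (limma adjusted p = 0.0725) and by 0.70 in STZ-HFD minus Con+Veh (limma adjusted p = 0.153), and the difference between the models was 1.74 (SE 0.40, limma adjusted p = 0.0367). That call was lost when any of 9 libraries was left out.

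The other erythroid lists had no further call. Of 10 erythroid transcription factor genes 7 were tested, with medians of -0.11 in db/db minus db/+ and -0.16 in STZ-HFD minus Con+Veh. Of 16 erythroblast and reticulocyte genes 13 were tested, with medians of -0.47 and -0.0019. *Hemgn*, an erythroid nuclear protein gene, differed by -0.47 and 0.20 (limma adjusted p = 0.761 and 0.902). *Epor*, which encodes the erythropoietin receptor, had 4 to 28 counts per library, and *Car1*, a carbonic anhydrase of red cells, 0 to 53. STZ-HFD replicate 1 had a count for 59 of the 61 list genes, against 48 to 53 in the other libraries.

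**Figure D5:**
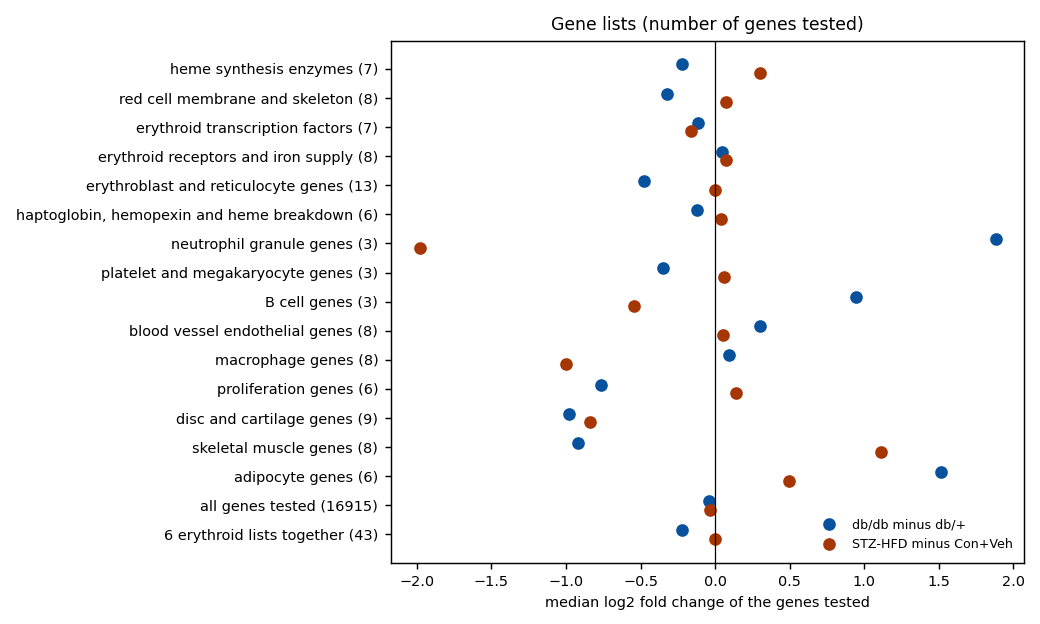
Median log2 fold change of the tested genes of each list, in each model, with the number of genes tested in parentheses. The medians of the erythroid lists lie between -0.47 and 0.30, beside -0.04 for all genes tested, while the neutrophil, muscle and adipocyte medians lie further from 0.

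Genes of other blood cells and of neighboring tissues were read beside the globins, and their part in the globin values was not tested. Of 10 neutrophil granule genes 3 passed the filter, and none was called within either model. The summed level of the list was 7.38 to 17.7 CPM in db/+, 18.4 to 49.9 in db/db, 3.396 to 32.8 in Con+Veh and 4.43 to 8.67 in STZ-HFD. *S100a8* and *S100a9*, which encode the subunits of calprotectin, differed by 1.88 and 1.95 in db/db minus db/+ and by -1.94 and -3.41 in STZ-HFD minus Con+Veh (limma adjusted p of 0.247 or more), and *Mpo*, the myeloperoxidase gene, had 0 to 37 counts. *Lcn2*, which encodes lipocalin 2, differed by 1.49 and -1.98 (limma adjusted p = 0.115 and 0.0934), and its difference between the models was called, at -3.47 (limma adjusted p = 0.0393), a call lost when any of 11 libraries was left out. All 3 tested genes had negative differences between the models, with a median of -3.82. Of 8 platelet and megakaryocyte genes 3 were tested, with a median of 0.06 in STZ-HFD minus Con+Veh. *Pf4*, the platelet factor 4 gene, which macrophages can also express, fell by 1.56 on the log2 scale in STZ-HFD (limma adjusted p = 0.0432), while *Itga2b* and *Gp1ba*, which encode platelet surface proteins, differed by 0.06 and 1.00 (limma adjusted p = 0.960 and 0.327). *Ppbp*, which encodes another platelet chemokine, had 0 to 30 counts. *Cd79a*, part of the B cell receptor, had 0 to 46 counts. The macrophage genes *Cd68*, *C1qb* and *C1qc* fell in STZ-HFD by 1.63, 1.11 and 1.19 (limma adjusted p of 0.0427 or less). All 8 macrophage genes had negative differences there. The calls of *Cd68*, *C1qb*, *C1qc* and *Pf4* were each lost without any of Con+Veh replicates 3 and 4 and STZ-HFD replicates 3 and 4 (adjusted p up to 0.518), and those of *C1qb* and *Pf4* also without STZ-HFD replicate 1.

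Genes of vessels, dividing cells, fat, muscle and cartilage were read in the same way. *Cdh5* and *Pecam1*, which encode endothelial junction proteins, differed by 0.06 and 0.50 in db/db minus db/+ and by -0.05 and 0.23 in STZ-HFD minus Con+Veh (limma adjusted p of 0.282 or more). *Tek*, the angiopoietin receptor gene, rose by 1.31 in db/db (limma adjusted p = 0.0115) by gene counts, a call kept without any 1 library, but differed by -1.32 by transcript estimates (limma adjusted p = 0.687). *Mki67*, a gene of dividing cells, fell by 1.47 in db/db (limma adjusted p = 0.0284). The adipocyte genes *Adipoq*, *Plin1* and *Fabp4* were called higher in db/db, and the muscle genes *Acta1*, *Myh2* and *Tnni2* were called higher and the cartilage genes *Sox9*, *Col2a1*, *Acan* and *Comp* lower in STZ-HFD. Of the 9 disc and cartilage genes tested, 6 had negative differences in STZ-HFD and 3, *Krt8*, *Krt19* and *T*, had positive ones of 0.01 to 0.25 (limma adjusted p of 0.902 or more). The muscle and cartilage calls were each lost without Con+Veh replicate 3, Con+Veh replicate 4 or STZ-HFD replicate 3, the adipocyte calls without db/+ replicate 2, db/+ replicate 3 or db/db replicate 2, and that of *Mki67* without any of 5 of the 6 db libraries. The summed level of the 8 muscle genes was 6113 to 7402 CPM in Con+Veh and 7226 to 17262 CPM in STZ-HFD, or 15440 to 17262 CPM without replicate 1.

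The levels of the copies were also compared across the 14 libraries. The correlation of log2 CPM was r = 0.931 between *Hba-a1* and *Hba-a2* and r = 0.707 between *Hbb-bs* and *Hbb-bt*, and between the chains it was r = 0.21 to 0.56, the highest between *Hba-a1* and *Hbb-bt*. After the group means were taken out, it was r = 0.922 and r = 0.667 within the chains and r = 0.43 to 0.65 between them, so that the beta-globin pair was hardly apart from the closest pair across the chains. *Alas2* had r of -0.07 to 0.49 with the globin genes. These are descriptions over libraries that share depth and base composition effects, and within a pair also shared reads. The 8 other genes whose levels were most like the mean scaled level of the 5 tested genes were *Adam11* (r = 0.872), *Gm42443*, *Gm43150*, *Gm30238*, *Gm36527*, *Slc2a4rg-ps*, *Oas1b* and *2310016D23Rik* (r = 0.804). All 8 were at most 3.81 CPM in any library, and none belongs to the erythroid lists.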

How the data were processed

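Groups came from the sample labels, and all 14 libraries were used. Libraries were made from total RNA after cDNA amplification. The authors aligned reads with STAR to GRCm38, deposited whole-number gene counts from featureCounts without normalization, and deposited estimated counts per transcript from Salmon. The transcript estimates were summed per gene and rounded for 1 alternative. The strand setting and the handling of multimapping reads are not given in the sources used here. Repeated lines (287 of 55774) were used once.

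Genes with CPM above 1 in at least 3 libraries (16915) were fitted in R 4.3.3 with edgeR 4.0.16 (TMM) and limma 3.58.1 (voomWithQualityWeights, a mean per group, Benjamini-Hochberg adjustment over all genes tested). This test replaced the edgeR quasi-likelihood test because the study's methods name it. The p-values measure the spread between mice. The edgeR quasi-likelihood test, DESeq2 1.42.0 and the other alternatives are given below. The scripts were tested on simulated data. Positions and lengths came from GENCODE M21, which held 55227 of the 55487 genes, and promoters from RefSeq, found for 7 of the 8 genes.

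The genes, the 16 lists of other genes and the tests were chosen with earlier results of these data known. Named were the 8 genes, called list genes (up to 4 per list and model), a fixed set of lineage genes, and the 8 genes most like the tested members. A few genes that this rule names are not reported here. *Kel*, *Sptb* in the separate models, *Slc40a1* and *Hp* were named after their values were seen.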

Additional observations from a re-analysis of the deposited data

Results flagged for a closer look

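In STZ-HFD replicate 1, 3 of the genes lay far above the other libraries of the group: *Slc4a1* at 4.40 CPM (0.309 to 0.416 in the other 3), *Epb42* at 1.44 CPM (0.119 to 0.248) and *Klf1* at 0.576 CPM (0 to 0.0621). By chance, about 5% of such groups hold a library this far from the others, and 22 groups of values were examined.

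The change of 9 list genes differed between the models in a test of the difference itself (limma, Benjamini-Hochberg adjustment). *Sptb* differed by 1.74 on the log2 scale (adjusted p = 0.0367), and the neutrophil granule gene *Lcn2* by -3.47 (adjusted p = 0.0393). The muscle genes *Acta1*, *Myh2*, *Ckm* and *Mb* differed by 2.20, 2.74, 2.10 and 2.83 (adjusted p of 0.0297 to 0.0456). The endothelial genes *Tek* and *Emcn* differed by -1.24 and -1.40 (adjusted p = 0.0300 and 0.0204), and the macrophage gene *Mrc1* by -1.94 (adjusted p = 0.0308). Over all genes tested 1.77% were called. Each of the 9 calls was lost without some libraries, from 3 of 14 for *Emcn* to 11 of 14 for *Lcn2*, and all were lost without Con+Veh replicate 3 or STZ-HFD replicate 3. By transcript estimates the value for *Tek* was 2.46 (adjusted p = 0.700).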

How the results depend on the processing

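The count of called genes was 0 in each model and for the difference between the models under all alternatives run, and no adjusted p of a member passed 0.05 except with the replicate block. Same-numbered mice did not deviate together (mean r -0.0911 in the db mice and -0.111 in the STZ-HFD and Con+Veh mice). With 3 and 4 such pairs, this cannot show whether the numbers pair the samples. With the replicate block, *Hbb-bs* differed by 0.92 in db/db minus db/+ (adjusted p = 0.00927), under the fold change minimum, while 20.2% of all genes tested passed 0.05 without a minimum, against 1.93% without the block. The differences of *Hbb-bs* and *Hbb-bt* stayed positive in both models under all 27 alternatives (adjusted p 0.00927 to 0.467 and 0.242 to 0.814 in the db mice, 0.145 to 0.805 and 0.325 to 0.895 in the others). The alternatives below turned the sign of values that no test had called, and the cause was not tested.

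In db/db minus db/+, removing the GC trend gave 0.087 for *Hba-a1* and 0.11 for *Hba-a2*. In STZ-HFD minus Con+Veh, *Hba-a1* was 0.011 with DESeq2, 0.39 with voom without quality weights and 0.018 with no filter on low counts, and *Hba-a2* was 0.17 without weights. *Alas2* was 0.15 with the edgeR quasi-likelihood test, 0.18 with DESeq2, 0.31 without weights, 0.012 with RLE size factors, 0.044 with each model fitted alone, 0.015 with the GC trend removed and 0.10 without Con+Veh replicate 2 and STZ-HFD replicate 4, whose library names share an ending. For the difference between the models, the edgeR test gave 0.21 (*Hba-a1*), 0.17 (*Hba-a2*), 0.11 (*Hbb-bs*) and 0.079 (*Alas2*), DESeq2 gave 0.22, 0.17, 0.12 and 0.095, and voom without weights gave 0.68, 0.44, 0.29 and 0.28. With no filter *Hba-a1* was 0.22 and *Hba-a2* 0.20, from transcript counts *Hba-a1* was 0.74 and *Hbb-bs* 0.17, and without the 2 libraries above *Hbb-bt* was -0.06 and *Alas2* 0.05.

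Leaving out 1 library at a time gave, in db/db minus db/+, -0.55 to 0.053 for *Hba-a1*, -0.54 to 0.029 for *Hba-a2* and -0.14 to 0.32 for *Alas2*. In STZ-HFD minus Con+Veh it gave -0.63 to 0.42, -0.49 to 0.33 and -0.21 to 0.22. For the difference between the models it gave -0.50 to 0.69 for *Hba-a1*, -0.38 to 0.58 for *Hba-a2*, -0.50 to 0.24 for *Hbb-bs*, -0.17 to 0.92 for *Hbb-bt* and -0.33 to 0.18 for *Alas2*. The difference in the *Hbb-bt* share between STZ-HFD and Con+Veh was -1.79 to 1.05 points.

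The median adult globin share, with the 2 db groups first (controls before db/db) and Con+Veh before STZ-HFD, was 0.0172%, 0.0196%, 0.0144% and 0.0206% of transcript estimates and 0.0103%, 0.0143%, 0.00701% and 0.0122% of gene counts outside ribosomal RNA. The db/db median of the beta to alpha ratio was 1.11 from transcript estimates and 0.901 from gene counts, and the STZ-HFD median 2.27 and 1.33. The ratio and its alternatives were chosen after seeing the data. *Epb42* and *Klf1* were at or near the floor of 3 counts in several libraries, and *Slc4a1* had 5 counts or more in each. With no filter on low counts, the SE of their log2 differences was 0.752 to 1.19. Only large changes in them could therefore have been called.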

Other observations

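Haptoglobin and the heme breakdown genes, which deal with free hemoglobin, were read as a further list, of which 6 of 7 genes were tested and none was called in either model (limma), where 1.66% and 2.61% of all genes were. At an unadjusted p under 0.05 there were 2 and 1 of the 6, beside 21.1% and 17.9% of all genes. *Hp*, the haptoglobin gene, was at 16.8 ± 7.25 CPM in db/+ and 29.6 ± 7.15 in db/db (SD, n = 3 each), a difference of 0.86 on the log2 scale (limma adjusted p = 0.135). It was at 19.0 ± 7.59 CPM in Con+Veh and 35.03 ± 8.19 in STZ-HFD (SD, n = 4 each), a difference of 0.67 (limma adjusted p = 0.208). *Hmox1*, which encodes the heme-cleaving oxygenase, differed by -0.23 and -0.19 (limma adjusted p = 0.728 and 0.842). *Slc40a1*, the iron exporter gene, differed by 0.74 and 0.27 (limma adjusted p = 0.113 and 0.788). Of 8 B cell genes 3 were tested, and none was called.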
